A study of Mus musculus with 6 samples.

Results

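The 7 mature microRNAs (miRNAs) described here are mmu-miR-378a-3p, mmu-miR-378a-5p, mmu-miR-193a-3p, mmu-miR-193b-3p, mmu-miR-365-3p, mmu-miR-335-5p and mmu-miR-335-3p (written below without the mouse prefix mmu), which have been studied in fat cells and in energy metabolism. They were chosen by name, and each matched 1 of the 649 entries of the deposited count table. Small RNA-seq libraries came from the skin of mice of the inbred C57 strain in 2 groups, normal ulcer and diabetic ulcer, with 3 samples each and all at day 14. The labels give no age, sex or way of inducing diabetes and do not tie samples to animals. The p-values therefore measure the spread between samples, which may be technical. Of each group, sample 3 holds deposited values that can be computed from samples 1 and 2. For normal ulcer 3, the count was a fixed weighted sum of normal ulcer 1 and 2, to within 1 read, for 93.4% of 638 entries, and the TPM (a depth-scaled abundance) of diabetic ulcer 3 lay within 1% of a linear formula in diabetic ulcer 1 and 2 for 85.1% of 222 entries with at least 200 counts in diabetic ulcer 2. Levels and tests below therefore use the other 4 libraries, and values given in library order are for normal ulcer 1, normal ulcer 2, diabetic ulcer 1 and diabetic ulcer 2.

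A miRNA is cut from a hairpin precursor, and either strand of the cut duplex, named 5p or 3p by its arm, can guide repression of messenger RNAs, mainly through the seed at bases 2 to 8. miR-378a lies in an intron of Ppargc1b, the gene of a coactivator of mitochondrial metabolism. Mice lacking both of its strands have been described as resistant to diet-induced obesity. miR-193b and miR-365 are made from a shared gene cluster that has been reported to favour brown fat differentiation in mouse cell culture, and miR-193a sits beside a further copy of miR-365. miR-335 lies in an intron of Mest, an imprinted gene expressed from the paternal allele whose level rises in expanding mouse fat, and miR-335 has been reported to rise with lipid loading there. Skin holds a layer of fat cells in the dermis and, in mice, a thin sheet of skeletal muscle below it. miR-378a is abundant in muscle as well as in fat.

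The mature sequences of 5 of the 7 members were found in the RefSeq table (build GRCm38.p6), and each equalled the deposited one. They are shown because the seeds separate the members into families and because the strands of miR-335 are compared below. Capitals mark the seed, and all sequences read 5′ to 3′.
miR-193a-3p: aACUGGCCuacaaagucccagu
miR-193b-3p: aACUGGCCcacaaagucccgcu
miR-365-3p: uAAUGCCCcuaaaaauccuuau
miR-335-5p: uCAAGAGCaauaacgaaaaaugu
miR-335-3p: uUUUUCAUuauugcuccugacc
miR-193a-3p and miR-193b-3p share the seed ACUGGCC and differ at 3 positions, counted from 1 at the 5′ end of miR-193a-3p, as U9C, A20G and G21C. No other entry of the count table had this seed. No other entry shared the seed of miR-365-3p, miR-335-5p or miR-335-3p. miR-378a-3p shared its seed with 1 other entry, miR-378c.

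On GRCm38, the miR-193a hairpin lies at chr11:79711969-79712034 on the plus strand, and miR-365-2 follows it after 14365 bases at chr11:79726400-79726511. Neither overlaps another annotated gene, and the nearest protein-coding gene is Rab11fip4. The miR-193b hairpin lies at chr16:13449523-13449601 and miR-365-1 at chr16:13453840-13453926, separated by 4238 bases. Both are on the plus strand, opposite an intron of the non-coding Gm15738. Mature miR-365-3p has the same sequence from both loci, at chr11:79726467-79726488 and chr16:13453895-13453916, so its reads cannot be divided between them. The miR-335 hairpin lies at chr6:30741299-30741396 on the plus strand, inside an intron of Mest on the same strand. It is shown whole, with both mature strands in capitals, because the balance between them is compared below.
Mir335: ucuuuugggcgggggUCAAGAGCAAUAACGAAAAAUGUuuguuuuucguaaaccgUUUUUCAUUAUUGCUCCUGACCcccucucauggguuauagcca

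Library totals ran from 8949104 to 13421603 counts in the 4 libraries, and the 7 members took 0.876%, 1.75%, 1.26% and 1.62% of them in library order. Skin markers were present in every library, with the 9 epithelial entries (the miR-200 family, miR-203, miR-205, miR-31 and miR-184) at 1.44% to 7.0% of counts. Muscle markers spanned more percentage points. The 6 muscle entries (miR-1a-3p, miR-133a-3p, miR-133b-3p, miR-206-3p, miR-499-5p and miR-208b-3p) took 17.1%, 66.1%, 35.7% and 44.9% of counts in library order. miR-208b-3p was at 0 in all but normal ulcer 2, and miR-499-5p was at 0 in normal ulcer 1. None of these lists holds a miRNA restricted to fat cells, so the fat cell label of the members could not be checked against markers. In whole tissue, fewer cells of a type and less RNA per cell cannot be told apart.

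None of the 7 members was called different between diabetic and normal ulcer by edgeR's quasi-likelihood test. With 2 libraries per group and standard errors of 0.24 to 0.69 on the log2 scale, this does not show equal levels. All 7 passed the filter on low counts, and 0 of them passed an adjusted p of 0.05, against 0% of the 443 miRNAs tested. Without adjustment, 0 members had p under 0.05, against 0.903% of tested miRNAs (4 of 443). DESeq2 on the same libraries also called 0, with an unadjusted p under 0.05 for 0.616% of entries (4 of 649) and for no member. The adjusted p was 0.999 for every member, and the smallest unadjusted member p was 0.204. In the fitted log2 differences, diabetic minus normal, 4 members were above 0 and 3 below. Their median was 0.14, against -0.02 over all tested miRNAs. For each of the 7, the difference between groups was smaller than the larger of the 2 differences within a group. Most tested miRNAs shared this: only 67 of 443 had a difference between groups larger than both differences within a group.

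**Figure D1:**
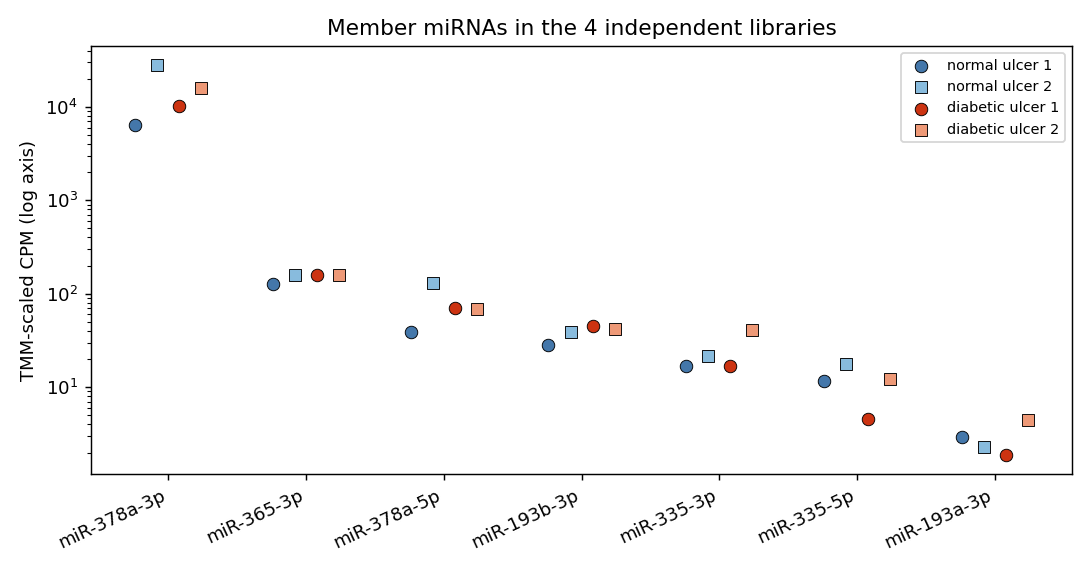
TMM-scaled CPM (log axis) of the 7 members in each of the 4 independent libraries, ordered by mean level, with 1 point per library. miR-378a-3p stands far above the rest, and only for miR-193b-3p do both diabetic ulcer points lie above both normal ulcer points.

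miR-378a-3p, the main strand of its precursor, was the most abundant member and ranked 12th of 649 entries by mean level. It had 75663, 232467, 113940 and 171120 counts in library order, which is 97.9% of all member counts. In CPM, counts scaled to a common depth by the trimmed mean of M values (TMM), the level used throughout, these were 6355, 27739, 10295 and 15708. Both extremes fell in normal ulcer, and the diabetic libraries lay between them. Group means (± SD, n = 2) were 17047 ± 15121 CPM for normal and 13001 ± 3828 CPM for diabetic ulcer, a log2 difference of -0.39 ± 0.69 (SE, edgeR's adjusted p = 0.999). The direction rested on 1 library and on the scaling: the difference was 1.14 without normal ulcer 2 and -1.10 without normal ulcer 1. It was 0.13 with library totals and 0.04 on deposited TPM.

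The level of miR-378a-3p ranked the libraries as the muscle miRNAs miR-1a-3p, miR-133b-3p and miR-499-5p did, but not as miR-133a-3p or miR-206-3p did. Entries outside the muscle list had this order too. The joint entry of miR-486a-5p and miR-486b-5p (396, 1262, 736 and 780 CPM), placed in the erythroid list, had it, as did miR-22-3p and miR-149-5p. Of the other erythroid entries, miR-451a and both strands of miR-144 did not have it. Whether reads of miR-486, miR-22-3p or miR-149-5p came from muscle was not tested. The share of all tested miRNAs with this order was not counted. miR-1a-3p took 16.4%, 65.0%, 34.4% and 44.4% of counts in library order. miR-378a-3p took 0.845%, 1.73%, 1.22% and 1.59%. Of 267 other miRNAs with a mean of at least 10 CPM, the nearest in pattern over the 4 libraries was miR-378d, at a root mean square log2 distance of 0.14. The second was miR-133b-3p, a skeletal muscle miRNA, at 0.24, with 395, 1679, 460 and 1095 CPM. miR-206-3p, a skeletal muscle miRNA, had 4686, 13230, 8123 and 2849 CPM, lowest in diabetic ulcer 2. The part of muscle content in the level of miR-378a-3p was not tested.

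miR-378a-5p, the minor strand, which has been reported to shift breast cancer cells away from oxidative metabolism, had 464, 1090, 782 and 749 counts in library order. Its levels were 39.0, 130, 70.7 and 68.8 CPM, again with both extremes in normal ulcer. The diabetic libraries were close to each other. Means (± SD, n = 2) were 84.5 ± 64.4 CPM for normal and 69.7 ± 1.34 CPM for diabetic ulcer, with a log2 difference of -0.28 ± 0.56 (SE), which became 0.95 without normal ulcer 2, 0.21 with library totals and 0.06 on deposited TPM. For each 5p read there were 163, 213, 146 and 228 reads of the 3p strand in library order. Library 2 had the higher ratio in each group, and the groups overlapped.

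Near-identical relatives of miR-378a-3p did not all share its pattern. miR-378c differs from it by 1 single-base edit, and miR-378b and miR-378d by 2 each, so reads with a sequencing error or a trimmed end may be assigned to the wrong entry. miR-378d had 472, 1632, 759 and 1051 CPM in library order, ranking the libraries as miR-378a-3p did. miR-378b had 11.4, 89.0, 34.2 and 43.2 CPM, ranking them so again. miR-378c ran the other way, with 12804, 545, 25839 and 2374 counts, or 1075, 65.0, 2335 and 218 CPM. It was high in the library numbered 1 of each group and low in the library numbered 2. As a share of miR-378a-3p and miR-378c reads together, it made up 14.5%, 0.234%, 18.5% and 1.37%. In sum, the epithelial entries also stood higher in the libraries numbered 1 (7.0% and 5.10% of counts) than in those numbered 2 (1.44% and 1.96%). That sum was mostly miR-203-3p, and miR-184-3p did not follow, being lowest in diabetic ulcer 1. The order was not particular to the epithelial list. The 3 fibroblast entries (the joint entry of miR-199a-3p and miR-199b-3p, miR-199a-5p and miR-214-3p) had it in sum too. They had 17350, 11120, 15590 and 10840 CPM in library order. The part of either list in the level of miR-378c was not tested. The groups overlapped for all 3 relatives, and the log2 difference of miR-378c was 1.16 ± 1.46 (SE, edgeR's adjusted p = 0.999). Without normal ulcer 1, where normal ulcer was 1 library, it was 4.29 with an adjusted p = 0.0354.

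**Figure D2:**
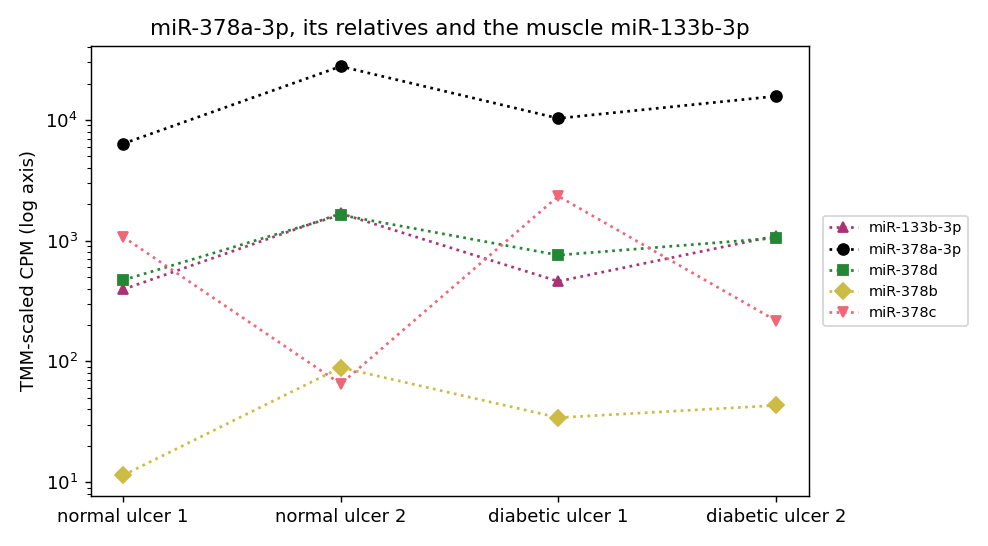
TMM-scaled CPM (log axis) of miR-378a-3p, its relatives miR-378b, miR-378c and miR-378d and the muscle miRNA miR-133b-3p in the 4 independent libraries, with dotted lines joining the values of 1 miRNA. miR-378c is highest in normal ulcer 1 and diabetic ulcer 1 (1075 and 2335 CPM), whereas the other 4 are highest in normal ulcer 2.

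miR-193b-3p, which has been reported to restrain growth in several tumour types, was the member whose groups did not overlap. It had 337, 326, 504 and 456 counts in library order, or 28.3, 38.9, 45.5 and 41.9 CPM. The lower diabetic value was above the higher normal one. Groups did not overlap for 1 of 7 members, against 21.0% of tested miRNAs, with diabetic ulcer above for 9.03%. Means (± SD, n = 2) were 33.6 ± 7.49 CPM for normal and 43.7 ± 2.60 CPM for diabetic ulcer, and the log2 difference of 0.38 ± 0.31 (SE) did not pass (edgeR's adjusted p = 0.999). The difference was positive in every alternative run, from 0.16 without normal ulcer 1 to 0.74 without normal ulcer 2. These runs reuse the same samples, and a kept sign largely follows from groups that do not overlap, so it is no separate support.

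miR-193a-3p, which shares its seed with miR-193b-3p, was the rarest member, with 35, 19, 21 and 48 counts in library order. At 2.94, 2.27, 1.90 and 4.41 CPM, the diabetic libraries held both the lowest and the highest value. The log2 difference was 0.27 ± 0.52 (SE), and it was -0.39 without diabetic ulcer 2. The miR-193b-3p level was 9.63, 17.2, 24 and 9.50 times that of miR-193a-3p in the 4 libraries. Summed, the seed family reached 31.2, 41.2, 47.4 and 46.3 CPM.

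miR-365-3p, the cluster partner of both miR-193 miRNAs, had the smallest standard error of the members. It had 1531, 1328, 1744 and 1733 counts in library order, or 129, 158, 158 and 159 CPM. Normal ulcer 1 was the low library, and the other 3 were within 2 CPM of each other. Means (± SD, n = 2) were 144 ± 21.1 CPM for normal and 158 ± 1.06 CPM for diabetic ulcer, a log2 difference of 0.14 ± 0.24 (SE). Without normal ulcer 1 it was -0.01. Per read of miR-193b-3p there were 4.54, 4.07, 3.46 and 3.80 reads of miR-365-3p in library order. This ratio does not depend on scaling, and both diabetic values lay below both normal values. This difference in ratio was not tested, and no share over other pairs of miRNAs was computed. For comparison, groups did not overlap for 21.0% of tested miRNA levels and for 32.6% of the strand ratios described below.

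The 5p strands of the miR-193 and miR-365 precursors were rare, and their log2 differences between groups were small beside their standard errors. miR-193a-5p had 46, 38, 46 and 49 counts in library order, and miR-193b-5p had 15, 23, 18 and 25. For miR-193a the 5p strand made up 56.8%, 66.7%, 68.7% and 50.5% of both strands, and its 95% Wilson interval lay wholly above an even balance in normal ulcer 2 (53.7 to 77.5) and diabetic ulcer 1 (56.8 to 78.5). For miR-193b the 5p strand made up 3.45% to 6.59%. Unlike the shared 3p strand, the 5p strands of miR-365 tell its loci apart: miR-365-1-5p, from chromosome 16, had 32, 38, 41 and 37 counts, and miR-365-2-5p, from chromosome 11, had 29, 13, 18 and 26. The log2 differences of these 4 strands were between -0.01 and 0.05.

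**Figure D3:**
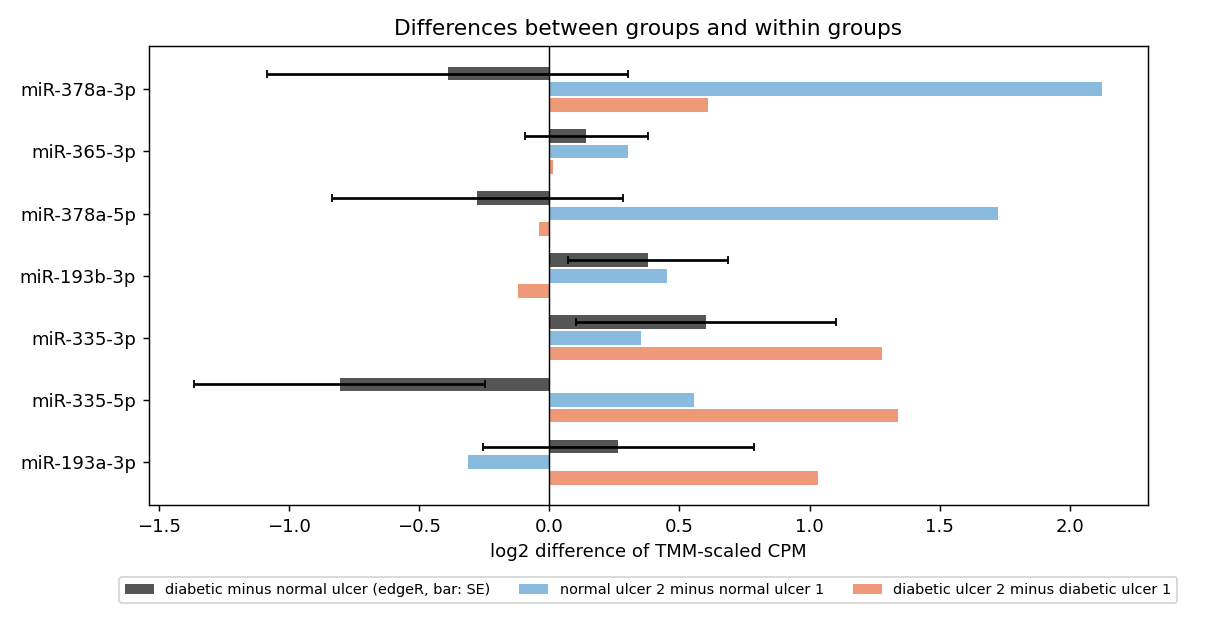
Log2 differences of TMM-scaled CPM for each member: diabetic minus normal ulcer from edgeR with its standard error (dark bars), library 2 minus library 1 in normal ulcer (blue) and in diabetic ulcer (orange). For each of the 7 members at least 1 of the coloured bars is longer than the dark bar, as for miR-378a-3p at 2.13 within normal ulcer against -0.39 between groups.

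The strands of miR-335 had log2 differences of opposite sign between groups, and neither passed. miR-335-5p, the strand named in most work on this miRNA, had 140, 147, 50 and 133 counts in library order, or 11.8, 17.5, 4.52 and 12.2 CPM. Diabetic ulcer 1 was the low library, and diabetic ulcer 2 lay between the normal libraries. The log2 difference was -0.81 ± 0.56 (SE, edgeR's adjusted p = 0.999), from -1.64 without diabetic ulcer 2 to -0.26 without diabetic ulcer 1. miR-335-3p had 199, 180, 185 and 449 counts, or 16.7, 21.5, 16.7 and 41.2 CPM. Here diabetic ulcer 2 was the high library, and the other 3 were close. Its log2 difference was 0.60 ± 0.50 (SE, edgeR's adjusted p = 0.999), and it was -0.13 without diabetic ulcer 2. The 5 leukocyte entries (both strands of miR-142a, miR-223-3p, miR-150-5p and miR-342-3p) were in sum also highest in diabetic ulcer 2, at 739, 891, 624 and 1398 CPM in library order, and none was at 0. Of the 5, miR-342-3p did not follow, with 33.2, 27.7, 27.1 and 27.8 CPM, highest in normal ulcer 1. The endothelial pair (both strands of miR-126a) was in sum also highest in diabetic ulcer 2, at 11780, 15830, 9978 and 18280 CPM. So were the 3 smooth muscle and pericyte entries (miR-143-3p and both strands of miR-145a), at 33460, 31120, 28080 and 39750 CPM. That sum was mostly miR-143-3p. Of the others, miR-145a-3p had 146, 120, 128 and 150 CPM, and miR-145a-5p was lowest in diabetic ulcer 2, at 965, 827, 933 and 759 CPM. Other lists went otherwise. In sum, the epithelial entries (52640, 23030, 42880 and 19350 CPM) and the fibroblast entries (17350, 11120, 15590 and 10840 CPM) were lowest in diabetic ulcer 2. The muscle and erythroid entries were in sum highest in normal ulcer 2. The part of these lists in the level of miR-335-3p or of miR-193a-3p, which was likewise highest in diabetic ulcer 2, was not tested.

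The balance of the miR-335 strands did not overlap between the groups. Reads of the 5p strand made up 41.3% (95% Wilson interval 36.2 to 46.6) and 45.0% (39.7 to 50.4) of both strands in normal ulcer 1 and 2. In diabetic ulcer 1 and 2 they made up 21.3% (16.5 to 26.9) and 22.9% (19.6 to 26.4). Wilson intervals take in counting error of reads alone and leave out variation between samples. Because reads copied by PCR are not separate molecules, they may also be too narrow for molecules. The 5p to 3p ratios were 0.704 and 0.817 in normal ulcer and 0.270 and 0.296 in diabetic ulcer, a log2 difference of -1.42. The mean normal ratio was 2.68-fold the diabetic one. The largest difference within a group was 0.22 on the log2 scale, and the smallest between a normal and a diabetic library was 1.25. The ratio does not depend on how the libraries are scaled. In diabetic ulcer 1 it went with a low 5p count, and in diabetic ulcer 2 with a high 3p count.

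Among 89 precursors with at least 20 counts of each strand in every library, miR-335 had the largest change in strand ratio. A change of at least 1 on the log2 scale was seen in 1.12% of these precursors, which is miR-335 alone, and groups that did not overlap were seen in 32.6%. miR-335 also ranked first with a minimum of 5, 10 or 50 counts (124, 105 and 64 precursors). In limma across all 89 precursors, a test added after the values were seen, the log2 difference was -1.42 ± 0.33 (SE), and limma's adjusted p = 0.166 did not pass. That test called 0% of the precursors, and 4.49% had an unadjusted p under 0.05. miR-378a, the other member precursor with enough counts, had a log2 difference of 0.03 in strand ratio.

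**Figure D4:**
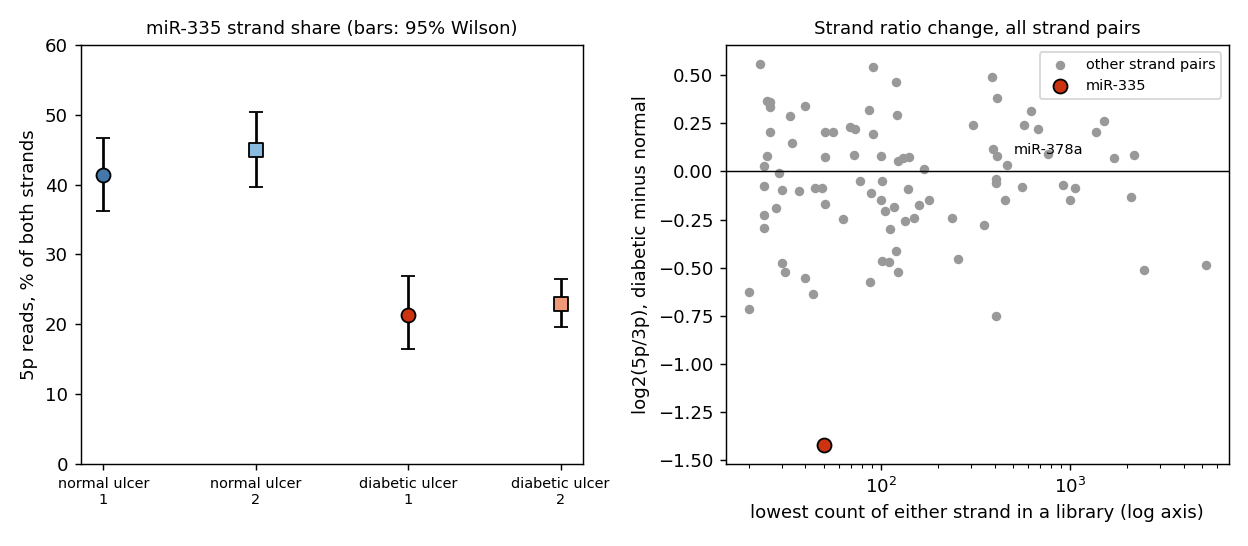
Left, share of 5p reads among both strands of miR-335 in the 4 independent libraries, with 95% Wilson intervals. Right, change in log2 strand ratio, diabetic minus normal ulcer, of 89 precursors against their lowest count of either strand in a library (log axis); miR-335 lies at -1.42, apart from the other precursors, the next of which is miR-142a at -0.75.

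The samples numbered 3 did not all repeat this balance. Normal ulcer 3 had 145 reads of miR-335-5p and 191 of miR-335-3p, a ratio of 0.759 that follows from normal ulcer 1 and 2. Diabetic ulcer 3 had 247 and 205, a ratio of 1.20. Its 5p value, 16.3 TPM, equalled the linear formula in diabetic ulcer 1 and 2 (gap under 1%). Its 3p value, 14.4 TPM, was the mean of those 2 libraries, which the formula does not give. The ratio in diabetic ulcer 3 therefore joins values made by different rules and is no separate measurement. Over all 6 columns the log2 difference of the strand ratio was -0.73.

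The authors' deposited table gives no member a q-value under 0.05, and its smallest member p-value is 0.00647 for miR-335-3p (q-value 0.600). In the authors' deposited table that miRNA has a log2 difference of 1.13, control (the code of the diabetic samples) minus case (the code of the normal samples), on base means of 418 and 191. The diabetic samples by title are thus the control of that header. All directions given here follow the sample titles. They would be reversed if case in the header meant the diabetic samples. The control base means of the authors' deposited table equalled 1 multiple of diabetic ulcer 2 within 1% for 646 of 647 entries. Its case base means equalled a weighted sum of normal ulcer 1, normal ulcer 2 and diabetic ulcer 1 within 1% for all 647. The fold changes in the authors' deposited table thus set diabetic ulcer 2 against the other 3 libraries, which is not the grouping of the labels. For the remaining members, the log2 differences in the authors' deposited table ran from -0.27 for miR-378a-5p to 0.85 for miR-193a-3p, with a q-value of 0.991 for each.

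By mean level the members ordered as miR-378a-3p (15024 CPM), miR-365-3p (151), miR-378a-5p (77.1), miR-193b-3p (38.6), miR-335-3p (24.03), miR-335-5p (11.5) and miR-193a-3p (2.88). Within each of the 4 libraries every neighbouring pair kept this order. Across libraries, the ranges of neighbours from miR-365-3p to miR-335-5p overlapped, while those of miR-378a-3p and miR-365-3p, and of miR-335-5p and miR-193a-3p, did not. Since adapter ligation captures miRNAs unequally, these levels compare read numbers and not molecules. The patterns nearest to other members were let-7d-3p and miR-100-5p for miR-365-3p (root mean square log2 distances of 0.06 and 0.07 over the 4 libraries) and miR-34b-3p and miR-409-3p for miR-193b-3p (0.10 and 0.15). They were miR-6239 and miR-3535 for miR-193a-3p (0.08 and 0.09), and miR-542-3p and miR-30a-5p for miR-335-5p (0.15 and 0.33). For miR-335-3p, the more frequent miR-335 strand, they were miR-1198-5p and miR-467a-5p (0.09 and 0.14). miR-542-3p had 45.4, 69.7, 23.0 and 45.2 CPM, lowest in diabetic ulcer 1 like miR-335-5p.

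Other miRNAs with reported roles in fat and metabolism did not pass either. Of 48 listed, 46 were in the table and were tested, and edgeR called 0, with 0 at an unadjusted p under 0.05. In diabetic ulcer 35 of them were lower and 11 higher, and their median log2 difference was -0.10, against -0.02 over all tested miRNAs. The share of lower miRNAs among all tested was not counted, and whether the listed miRNAs differed as a set was not tested. Their groups did not overlap for 21.7%, near the 21.0% of all tested miRNAs. Of 14 reported to promote fat cell formation, 9 were lower and 5 higher (median -0.12). The most abundant were miR-148a-3p, miR-143-3p, which promotes adipocyte differentiation, miR-21a-5p and miR-30a-5p. miR-143-3p had 32340, 30170, 27020 and 38840 CPM in library order, so the groups overlapped. Of 13 reported to restrain it, 11 were lower and 2 higher (median -0.10), led in abundance by miR-27b-3p, an inhibitor of the adipogenic receptor PPARγ, at 45400, 33220, 40050 and 29540 CPM.

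Of 15 reported in brown or beige fat, 11 were lower and 4 higher (median -0.09). miR-26a-5p, the most abundant, had 93360, 87440, 74740 and 64220 CPM, with both diabetic libraries below both normal libraries and a log2 difference of -0.38 ± 0.30 (SE, edgeR's adjusted p = 0.999). miR-133a-3p of this list is also a muscle miRNA and had 432, 3696, 2003 and 1471 CPM. Of 10 in insulin, glucose or lipid handling, 7 were lower and 3 higher (median -0.11). miR-103-3p and miR-29a-3p, which reduce insulin signalling in mouse tissues when raised, had log2 differences of 0.04 ± 0.32 and -0.21 ± 0.26 (SE). These lists share members with each other and with the muscle and epithelial lists.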

How the data were processed

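The deposited counts are whole-number reads per mature miRNA, without normalization, per the file headers and values. The authors' TPM values stand in a deposited comparison table. It also holds the authors' fold change, on a linear and a log2 scale, and their p-values and q-values, from an unpaired DESeq2 run per its header. Builds GRCm38 and mm10, names of 1 mouse assembly, are given per the submitters' processing notes, and for the aligner and counter the sources used here give no name. Samples were grouped by title, and 0 numeric columns were left unmapped.

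Groups were compared by the quasi-likelihood test of edgeR 4.0.16 (R 4.3.3) with TMM scaling and filterByExpr at its defaults, two-sided, on 2 against 2 libraries, with a Benjamini-Hochberg adjusted p under 0.05 over all 443 tested miRNAs. A standard error is the log2 difference over the square root of F. TMM factors were 1.33, 0.624, 1.19 and 1.01 for normal ulcer 1 and 2 and diabetic ulcer 1 and 2. Alternatives were DESeq2 1.42.0, limma 3.58.1 on log2(TPM + 1) or log2(TPM + 0.1), all 6 columns, other scalings and filters, a replicate block and leaving out each library. Strand ratios use counts, and the limma fit on them adds 0.5 to each strand. Nearest patterns use log2(CPM + 0.5), centred per miRNA. The code was tested on simulated data. Hairpin annotation is from GENCODE release M21, and coordinates count from 1.

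Members and lists were chosen with earlier results of these data known. Named miRNAs are all members, their other strands, the miR-378 relatives, up to 4 of each metabolic list (called first, then most abundant; part of these are named) and the 2 nearest patterns of each member but miR-378a-5p and miR-335-3p. miR-142a, miR-206-3p and the nearest patterns of miR-335-3p were named after their values were seen.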

Additional observations from a re-analysis of the deposited data

How the results depend on the processing

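Across the alternatives run, 0 members passed the threshold. Of 97 member values under alternatives, 86 kept their direction and 11 changed sign. Library totals shifted the median of all tested miRNAs from -0.02 to 0.17 on the log2 scale, and called 1 miRNA (miR-499-5p, lower). Relative to that shift, miR-378a-3p and miR-378a-5p (0.13 and 0.21) were near the median miRNA. On TPM both were above 0 as well (0.0362 and 0.0621 with a pseudocount of 1, 0.0362 and 0.0672 with 0.1). Leaving out 1 library gave ranges of -1.10 to 1.14 for miR-378a-3p, -0.91 to 0.95 for miR-378a-5p, -0.39 to 0.76 for miR-193a-3p, -0.00707 to 0.41 for miR-365-3p and -0.13 to 1.12 for miR-335-3p, with sign changes. The lone library of a group was then assumed to vary like the others. miR-193b-3p (0.16 to 0.74) and miR-335-5p (-1.64 to -0.26) kept their sign. Numbers called among all miRNAs ran from 0 to 6; the 6, without normal ulcer 1, were miR-196a-5p, miR-196b-5p, miR-1b-5p, miR-208b-3p, miR-378c and miR-499-5p. The miR-335 strand ratio ran from -1.53 to -1.31 without 1 library and was -0.73 over all 6 columns, where diabetic ulcer 3 joins values made by different rules. miR-193a-3p had no value at a mean CPM of at least 10.

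The replicate numbers are not stated to pair samples, and 2 pairs do not settle it: the differences of library 1 and 2 in each group correlated at 0.45 across 443 miRNAs. With the replicate block edgeR called 0 miRNAs and 0 members, with 20 miRNAs at an unadjusted p under 0.05, including miR-335-5p (log2 difference -0.93, adjusted p = 0.992). At 19 to 50 counts in a library, the lowest values of miR-193a-3p and miR-335-5p are limited by counting error.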
